A study of Solanum lycopersicum with 24 samples.

Results

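Late orange fruit of the tomato mutant Never-ripe (Nr O) were compared with green fruit of the same mutant (Nr G) by the N1-methyladenosine (m1A) peaks listed for each library. The comparison takes the 6 immunoprecipitated Nr libraries, 3 of Nr O and 3 of Nr G, out of 24 samples in the series. The members are the 18 peak lists of these libraries, 1 each for mRNA, lncRNA and circRNA, and a gene is a Solyc locus without its version suffix. The lists held 1358 mRNA peaks on 751 genes, 198 circRNA peaks on 27 circles and 19 distinct lncRNA peaks on 8 lncRNAs.

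All 6 libraries came from homozygous Nr plants, which carry a mutated ethylene receptor in the Ailsa Craig (AC) background. Nr O fruit were taken 6 days after the breaker stage and Nr G fruit at the mature green stage, about 39 days after anthesis. The titles give only the letters O and G, which were read as orange and green from the study's design text. Each group had 3 biological replicates by that text, numbered 1 to 3, and no label says whether fruits were pooled. Wild-type AC fruit at 6 days after breaker (AC Br+6) and at mature green (AC MG), 3 libraries each, served to ask whether the stage difference in Nr differed from that in the wild type and which Nr genes were called there too. Labels name the tissue only as tomato, so pericarp, gel and seed cannot be separated. In such bulk samples fewer cells of a type and less RNA per cell cannot be told apart.

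m1A is an adenosine with a methyl group on the ring edge that pairs with uridine, so it carries a positive charge and blocks ordinary base pairing. It is best known from tRNA and ribosomal RNA, and it is also mapped in mRNA with an antibody that pulls down methylated fragments. Ethylene drives the ripening of tomato, and its receptors hold the response off until the hormone binds. The Never-ripe receptor does not bind ethylene, so the fruit stay partly insensitive and turn orange rather than red.

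Nr O libraries listed fewer mRNA peaks than Nr G libraries. The lists held 108, 151 and 129 mRNA peaks in Nr O replicates 1 to 3, against 377, 233 and 360 in Nr G. The groups did not overlap, and replicate 2 was the highest of Nr O and the lowest of Nr G. The means were 129 ± 21.5 peaks in Nr O and 323 ± 78.7 peaks in Nr G (SD, n = 3 each). On the log2 scale the difference, Nr O minus Nr G, was −1.30 ± 0.26 (SE), which is 2.47-fold fewer peaks in Nr O. The two-sided exact permutation test gave p = 0.1, the smallest that 3 against 3 libraries allow, and an adjusted p of 0.28 over 14 tests by the Benjamini-Hochberg method, so the difference did not pass the threshold of 0.05. These p-values compare the observed grouping with all groupings of the libraries at hand, and they do not measure the size of the spread.

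Called genes followed the same order as peaks. A gene was called in a library where at least 1 mRNA peak lay in it. Nr O libraries called 104, 141 and 121 genes, against 358, 218 and 330 in Nr G. The log2 difference was −1.29 ± 0.26, or 2.44-fold fewer genes in Nr O (exact permutation p = 0.1, adjusted 0.28). Peaks per called gene were 1.04, 1.07 and 1.07 in Nr O and 1.05, 1.07 and 1.09 in Nr G, with overlapping groups (exact permutation p = 0.5, adjusted 0.636). The lists thus differed in how many genes they named, and nearly every gene had a single peak in either group.

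The other RNA classes differed less in peak number or held few peaks. CircRNA lists had 30, 31 and 31 peaks in Nr O and 40, 32 and 34 in Nr G. The log2 difference was −0.20 ± 0.10 (exact permutation p = 0.1, adjusted 0.28). Some of these peaks were listed for an mRNA of the same library too, 11, 13 and 12 in Nr O and 22, 15 and 15 in Nr G. Without them 19, 18 and 19 circRNA peaks were left in Nr O and 18, 17 and 19 in Nr G, and the log2 difference was 0.05 (exact permutation p = 0.7). The lower circRNA number in Nr O therefore lay in peaks that stand on a linear transcript as well. Distinct lncRNA peaks numbered 2, 1 and 3 in Nr O and 4, 4 and 5 in Nr G, a mean difference of −2.33 peaks (SE 0.667, exact permutation p = 0.1, adjusted 0.28).

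**Figure D1:**
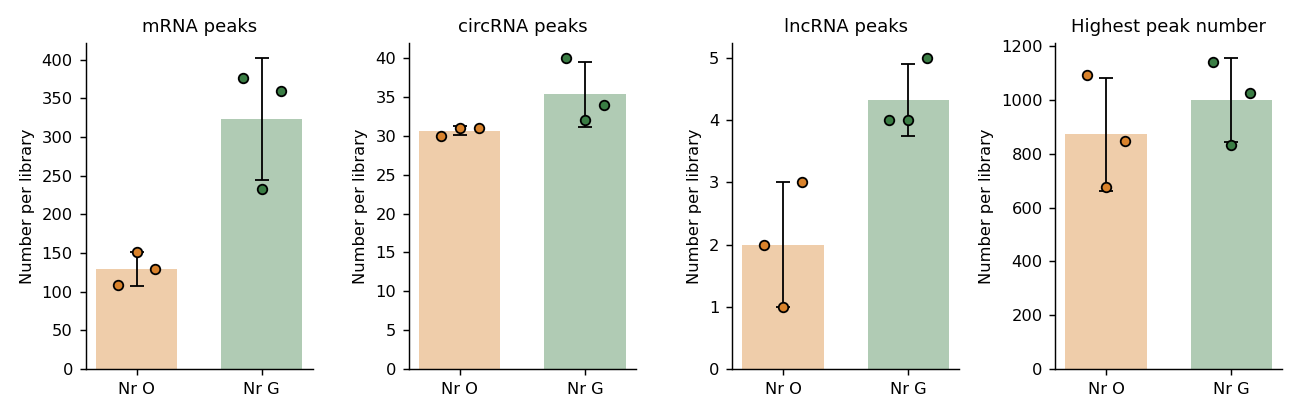
Numbers per library of mRNA, circRNA and distinct lncRNA peaks and the highest peak number among the listed peaks, with Nr O left of Nr G. Bars are means, error bars SD, points the 3 libraries. The mRNA points run from 108 to 151 in Nr O and from 233 to 377 in Nr G without overlap, while the highest peak numbers overlap.

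The peak names carry a running number given by the peak caller, in genome order, and the listed peaks are a subset of these numbers. The highest number among the listed peaks was 1094, 675 and 846 in Nr O and 1141, 834 and 1025 in Nr G. These overlapped, with a log2 difference of −0.21 ± 0.24 (exact permutation p = 0.5). Any peak numbered beyond the last listed one is not counted, so the share of numbers that reached any of the 3 lists is an upper limit. This share was 11.8%, 25.2% and 17.8% in Nr O, against 35.0%, 30.5% and 37.4% in Nr G. The groups did not overlap, and the mean share was 16.0 percentage points lower in Nr O (SE 4.37, exact permutation p = 0.1). With mRNA peaks taken per highest number, Nr O was still lower, by a log2 difference of −1.09 ± 0.35, a ratio of 0.470 (exact permutation p = 0.1). Numbers that are in no list were not analysed here, and sequencing depth is unknown because the lists carry no read totals.

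None of the measures showed a stage difference in Nr that passed the test against the stage difference in AC. For mRNA peaks the Nr difference minus the AC difference was −1.20 ± 0.88 on the log2 scale (exact permutation of genotype within stage, p = 0.275, adjusted 0.428). AC lists varied widely, from 188 to 854 mRNA peaks in AC Br+6 and from 220 to 688 in AC MG. The same test gave p = 0.27 for mRNA genes, 0.26 for circRNA peaks and 0.21 for lncRNA peaks, all unadjusted exact permutation values. Without AC MG replicate 1 the unadjusted exact p became 0.035 for mRNA peaks, with a difference of −1.67, and 0.035 for mRNA genes, with −1.59. It became 0.015 for lncRNA peaks, with a difference of −5.17 peaks. No other single library left out gave an unadjusted exact p below 0.05 in this test. Other omissions moved the mRNA peak difference the opposite way. It was −0.530 without AC Br+6 replicate 3 (exact permutation p = 0.43) and −0.849 without AC MG replicate 2 (exact permutation p = 0.475). The fewer peaks of Nr O are thus described for Nr and not shown to be a property of the mutant.

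Peak length and fold enrichment were close between the groups. Median mRNA peak length was 183, 180 and 183 bases in Nr O and 197, 186 and 185 bases in Nr G, a log2 difference of −0.06 ± 0.03 (exact permutation p = 0.1, adjusted 0.28). The longest mRNA peak was 522 bases in Nr O and 787 bases in Nr G, and the shortest was 2 bases in both. Peaks under 50 bases numbered 10, 12 and 11 in Nr O and 27, 22 and 34 in Nr G. CircRNA peaks were longer, with medians of 631, 662 and 726 bases in Nr O and 716.5, 549 and 672 bases in Nr G. These overlapped (log2 difference 0.07 ± 0.13, exact permutation p = 0.8, adjusted 0.933).

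Fold enrichment is the value the authors' peak caller gave each peak, with a highest value of 50, and was not tested between libraries. Its median over mRNA peaks was 16.74, 21.45 and 14.86 in Nr O and 14.22, 17.66 and 17.19 in Nr G. Peaks at the highest value numbered 13, 20 and 15 in Nr O and 44, 31 and 42 in Nr G. CircRNA medians were 18.29, 21.02 and 26.43 in Nr O and 22.245, 22.035 and 26.685 in Nr G. The ranges of the libraries' medians overlapped in both classes.

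**Figure D2:**
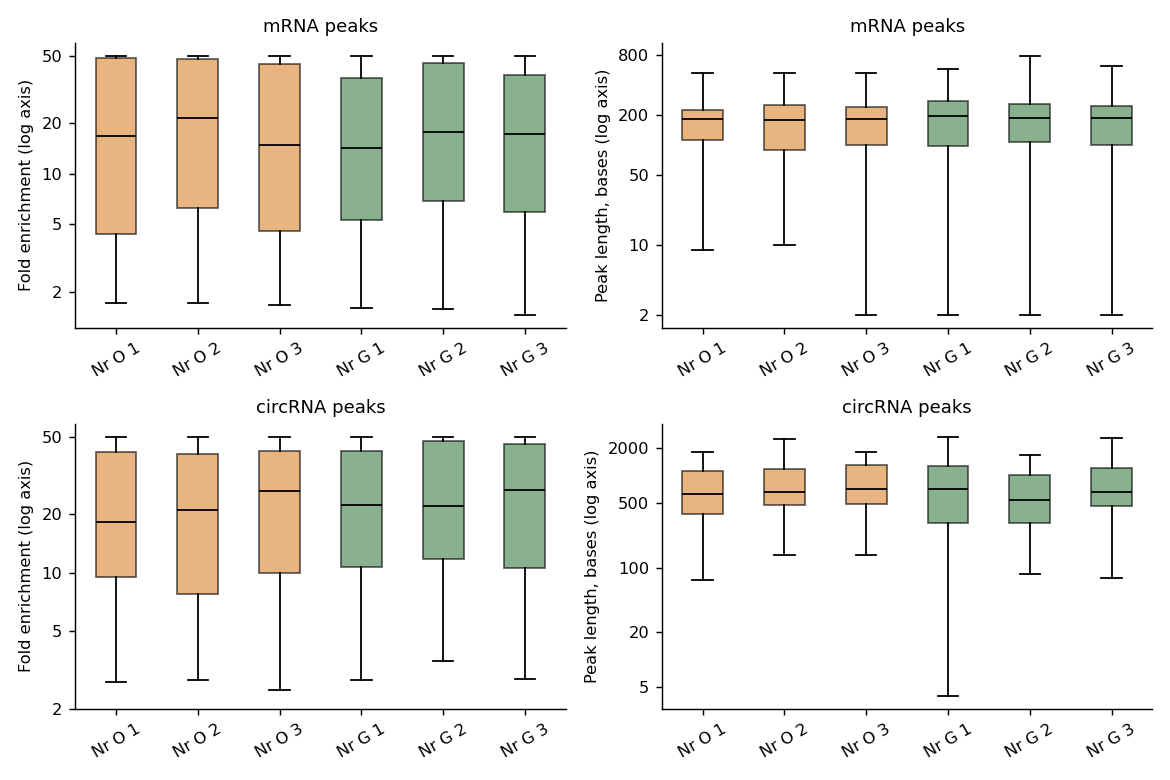
Fold enrichment (left, log axis) and peak length in bases (right, log axis) of every mRNA peak (top) and circRNA peak (bottom) in the 6 libraries, Nr O left of Nr G; boxes span the quartiles, the line is the median and whiskers reach the lowest and highest value. Median mRNA lengths lie between 180 and 197 bases in all 6 libraries, and the fold enrichments reach 50 in each.

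A small set of genes was called in nearly every library, and most others were called once. Of the 751 genes, 193 were called in Nr O and 672 in Nr G. The 114 genes called in both were 59.1% of the Nr O genes and 17.0% of the Nr G genes. In all 6 libraries 68 genes were called, whereas 579 genes (77.1%) were called in a single library, 505 of them in 1 Nr G and 74 in 1 Nr O library. All 3 libraries called 76 genes in Nr O and 84 genes in Nr G, so the sets called throughout a group were far closer in size than the full lists.

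**Figure D3:**
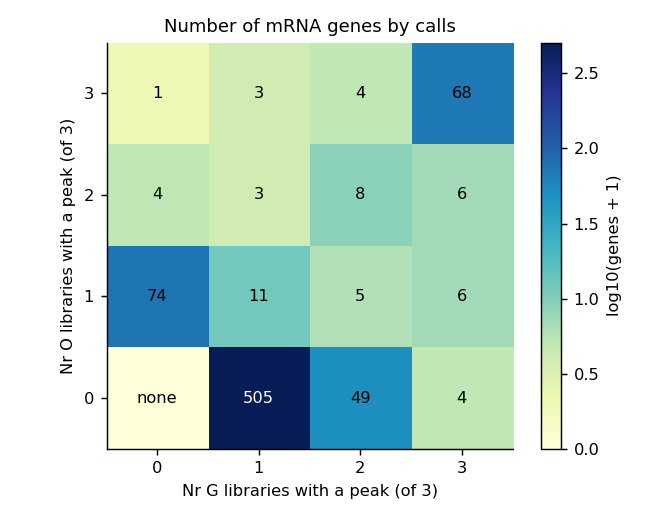
Number of mRNA genes by how many Nr O libraries (vertical axis, 0 to 3) and how many Nr G libraries (horizontal axis, 0 to 3) listed a peak in them, coloured by log10(genes + 1). The fullest cells are the 505 genes of 1 Nr G library only, the 74 genes of 1 Nr O library only and the 68 genes of all 6 libraries.

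Genes that all 6 AC libraries called, a set no Nr list chose, were nearly all called in Nr as well. Of these 69 genes, 65, 68 and 66 were called in Nr O and 69, 67 and 68 in Nr G. Outside this set Nr O libraries called 39, 73 and 55 genes and Nr G libraries 289, 151 and 262. The groups overlapped inside the set and stood apart outside it. The genes of all 6 Nr libraries made up 65.4%, 48.2% and 56.2% of the genes called in Nr O and 19.0%, 31.2% and 20.6% in Nr G.

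**Figure D4:**
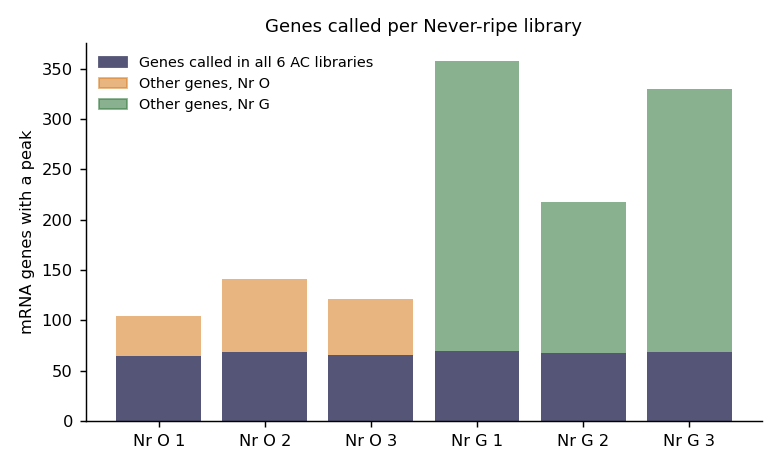
Number of mRNA genes with a peak in each Nr library, Nr O left of Nr G, split into genes called in all 6 AC libraries (dark, at the base) and all other genes (coloured, on top). The dark parts are 65 to 68 genes in Nr O and 67 to 69 in Nr G, and the coloured parts are 39 to 73 genes in Nr O and 151 to 289 in Nr G.

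Pairs of Nr O libraries shared more of their genes than pairs of Nr G libraries. The Jaccard index, the share of 2 libraries' genes called in both, was 0.497 to 0.552 within Nr O and 0.204 to 0.218 within Nr G. Between the groups it was 0.209 to 0.320. Lists of unequal length limit this index, so it is given as a description. Within Nr G, the strongest peaks stood out in how many lay on genes also called in Nr O, with no steady rise below them. Each Nr G list was split by fold enrichment into 4 parts of about equal size, from the weakest to the strongest. With the peaks of the 3 libraries pooled, 28.8%, 23.0%, 27.2% and 47.5% lay on such genes. In Nr G replicate 2 alone the shares were 34.5%, 34.5%, 43.1% and 55.9%. In the Nr O lists 62.8%, 74.7%, 79.4% and 84.7% of peaks, in the same order, lay on genes called in Nr G.

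Recurrent peaks kept their place. Of the 68 genes called in all 6 libraries, 42 had a peak whose boundaries were identical to the base in every list. Of 954 distinct pairs of peak boundaries over the 6 lists, 820 were in 1 list only. Overlapping peaks merged into 845 regions, of which 66 were in all 6 lists and 684 in 1. Among the 68 genes, 7 had a fold enrichment of 50 in all 6 libraries, 32 were at 20 or more in each and 3 stayed below 5 in each.

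Only 14 of these 68 genes (20.6%) have a description in the lists, against 359 of all 751 (47.8%). The described ones with the strongest peaks have varied products. UDP-arabinopyranose mutase 1-like (Solyc02g065740), which supplies the arabinofuranose of cell wall polymers, read 50 in all 6 libraries, with a peak of 384 to 386 bases at chromosome 2, 37458387 to 37458772. Receptor-like protein 51 (Solyc02g072250), BRISC and BRCA1-A complex member 2 (Solyc04g081500), named for a deubiquitinating complex, and cytochrome b-c1 complex subunit 8-like (Solyc06g007540), a part of respiratory complex III, also read 50 throughout. The twinkle homolog (Solyc02g022830), an organelle DNA helicase and primase, had a peak of 390 bases in each library and fold enrichments of 49.93 to 49.97 in Nr O and 49.93 to 49.98 in Nr G. A thioredoxin-like 4 gene (Solyc04g078910) had 180 bases in each and 49.12 to 49.89 in Nr O against 49.64 to 49.85 in Nr G. These values stand at or just under the highest value the deposited column takes, so differences in strength above it would not show.

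A few recurrent genes varied more. The 14 kDa proline-rich protein DC2.15 (Solyc08g074480) read 4.1, 50 and 43.52 in Nr O and 49.94, 50 and 50 in Nr G. The uncharacterised gene Solyc03g117210 read 18.12, 14.92 and 50 in Nr O and 40.72, 43.75 and 50 in Nr G. The chloroplast transcription termination factor MTEF1 (Solyc01g007750) read 31.46, 31.71 and 44.57 in Nr O and 50, 40.22 and 50 in Nr G. The groups overlapped in each of these 3 genes, and the lowest values were those of Nr O libraries. Protein SRG1 (Solyc01g067620), of the 2-oxoglutarate oxygenase family, read 17.1 to 20.86 in Nr O and 15.3 to 24.89 in Nr G. The CRM domain gene Solyc12g014280, named for an RNA-binding domain, read 46.09 to 48.75 in Nr O and 45.48 to 48.18 in Nr G. The pyruvate dehydrogenase acetyltransferase gene (Solyc07g006790), whose enzyme feeds the citric acid cycle, read 5.23 to 9.57 in Nr O and 8.18 to 10.01 in Nr G. A calcium channel gene (Solyc07g053970) read 2.64 to 6.07 in Nr O and 3.53 to 6.76 in Nr G.

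In the full lists, loss of a call was more frequent than gain. Genes called in at least 2 of the 3 Nr G libraries and in none of Nr O numbered 53, which is 7.06% of the 751 genes. Those called in at least 2 of the 3 Nr O libraries and in none of Nr G numbered 5, or 0.666%. Calls of a gene in 2 libraries need not lie at the same place. Counted by overlapping peak positions in place of genes, 39 were lost and 6 gained. No single gene can pass a test with 3 against 3 calls, and the counts carry none. With a library left out the rule still asked for 2 calls, so every remaining library of that group had to call the gene. As 49 of the 53 lost genes had exactly 2 Nr G calls, a fall was built in for the Nr G libraries. The first count was 11 without Nr G replicate 1, 18 without Nr G replicate 3 and 32 without Nr G replicate 2. The second was 1 without Nr O replicate 2, 3 without either other Nr O library and 9 without Nr G replicate 3. With every list cut to the same number of strongest peaks, 9 genes were lost and 34 gained. Of those 34, 32 had a Nr G peak in the full lists, which the cut had removed. The cut takes more peaks from the longer Nr G lists and chooses by fold enrichment. List length and peak strength therefore cannot be told apart in it.

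In 4 genes (0.533%) a peak stood in every Nr G library and in no Nr O library. One was polyubiquitin (Solyc07g064130, chromosome 7, 66536088 to 66538155), which encodes ubiquitin units in tandem, the tag for protein breakdown. It had no peak in any Nr O library, and fold enrichments of 34.5, 3.53 and 12.16 in Nr G. The other 3 have no description. Solyc01g022780 (chromosome 1, 32868780 to 32868911) read 5.69, 25.51 and 5.2 in Nr G, Solyc04g081880 (chromosome 4, 65832230 to 65832329) 3.73, 14.13 and 4.05, and Solyc01g090480 (chromosome 1, 84040489 to 84040587) 2.84, 1.77 and 2.27. Several of these Nr G peaks stood low in the range of the lists, which runs from 1.46 to 50.

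In 1 gene (0.133%) a peak stood in every Nr O library and in no Nr G library. It was Solyc11g071640, without a description, at 5.81, 3.89 and 4.18 in Nr O, on a peak of only 10 to 12 bases at chromosome 11, 55351145 to 55351156. The other 4 gained genes had peaks in 2 Nr O libraries. Solyc01g095320, without a description, read 17.44 and 48.28 in Nr O replicates 1 and 2, and Solyc01g067090 read 4.66 and 3.56 in replicates 2 and 3. The root isoform of phosphatidylinositol 3-kinase (Solyc04g015350), a lipid kinase of vesicle traffic, read 4.2 and 3.14 in replicates 2 and 3. Mitochondrial ATP synthase subunit d (Solyc11g072450) read 3.42 in replicates 1 and 2. All 5 gained genes had a peak in at least 1 AC library, as did 35 of the 53 lost genes and 306 of all 751 genes (40.7%). Most of the 751 were called once, so this share is not like for like. It was 97.9% for the 97 genes with at least 2 Nr G calls and at least 1 Nr O call. For the 505 genes of 1 Nr G library only it was 26.3%.

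Groups of genes by function came from words in the descriptions, so they are set beside the described genes, of which 67 of 359 (18.7%) were called in Nr O and 322 of 359 (89.7%) in Nr G. No group was tested against this share, and nothing is read as particular to one. Each count below is over members called in any Nr library.

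Protein folding genes were called in Nr G and not in Nr O. Of 16 chaperone genes, 0 were called in Nr O and 16 in Nr G, against 18.7% and 89.7% of described genes. The Nr G libraries held 11, 3 and 4 of them, and 14 were in 1 Nr G library only, so most of the count lay in Nr G replicate 1. The lost ones were heat shock cognate protein 80 (HSC80, Solyc07g065840), a cytosolic HSP90, at 48.68 and 48.4 in Nr G replicates 1 and 2, and heat shock cognate 70 kDa protein 2-like (Solyc09g010630) at 6.22 and 45.08 in Nr G replicates 1 and 3. The median number of Nr O calls minus Nr G calls was −1 for this list, as for all genes.

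Translation genes were called in 3 of 24 cases in Nr O (12.5%) and in 21 of 24 in Nr G (87.5%), near the shares of described genes, and no gene was called in both. The Nr O libraries held 0, 2 and 1 of them and the Nr G libraries 8, 5 and 11. Elongation factor 1-alpha (Solyc06g005060), which brings aminoacyl tRNA to the ribosome, read 18.67 and 3.34 in Nr G replicates 1 and 2. The ribosomal protein genes L27a-3-like (Solyc06g071720) and S24 (Solyc09g065330) read 3.91 and 7.62, and 5.1 and 21.08, each in 2 Nr G libraries. These 3 genes were the lost ones of the list, and the median calls difference was −1.

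Ubiquitin and proteasome genes were called in 1 of 18 cases in Nr O (5.56%, against 18.7% of described genes) and in 18 of 18 in Nr G (against 89.7%). The Nr G libraries held 12, 6 and 5 of them. A second polyubiquitin gene (Solyc10g006480) was lost too, at 50 and 26.09 in Nr G replicates 1 and 2, on peaks of 4 and 85 bases. The gene in all 6 libraries was the BRISC complex member described above. Polyubiquitin, elongation factor 1-alpha, HSC70, actin and ribosomal protein genes have near-identical copies, among which the authors' alignment may have split reads, so the locus of such a peak is uncertain.

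Genes of RNA binding and processing were called in 3 of 25 cases in Nr O (12%) and 24 of 25 in Nr G (96.0%), beside 18.7% and 89.7% of described genes. Lost ones were heterogeneous nuclear ribonucleoprotein A0 (Solyc02g090910) at 19.91 and 18.16, the exosome exonuclease RRP46 homolog (Solyc08g066700) at 10.49 and 6.08, splicing factor U2af small subunit B (Solyc10g083640) at 26.49 and 1.57, and the kinase prpf4B (Solyc05g009540), a splicing kinase, at 50 and 22.7, each in 2 Nr G libraries. The prpf4B peaks, of 68 and 403 bases, lay apart within chromosome 5, 3749146 to 3758066. Those of U2af, of 224 and 200 bases, lay apart within chromosome 10, 63556198 to 63559807. The pentatricopeptide repeat gene Solyc04g009000, of a family that binds organelle RNA, was called in both groups, at 4.45 and 3.98 in Nr O replicates 1 and 3 and 4.62, 1.96 and 2.43 in Nr G. The Nr G libraries held 17, 7 and 8 genes of this list, replicate 1 again the most.

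Transcription factor genes were called in 2 of 17 cases in Nr O (11.8%, against 18.7% of described genes) and 17 of 17 in Nr G (against 89.7%). The Nr O libraries held 0, 1 and 2 and the Nr G libraries 11, 4 and 9. TAGL1 (Solyc07g055920), a MADS-box factor of fruit expansion and ripening, had no Nr O peak and read 5.33 and 28.72 in Nr G replicates 1 and 3, within chromosome 7, 63972245 to 63979827. The bZIP factor 60 gene (Solyc04g082890), named for a factor of the unfolded protein response in Arabidopsis, read 2.13 and 48.33 in the same Nr G libraries, and a GATA factor gene (Solyc05g056120) 3.38 and 2.43. Both genes called in the 2 groups had weak peaks. The PHD-finger homeodomain gene Solyc01g107410 read 2.02 and 2.09 in Nr O replicates 2 and 3 and 1.78, 1.57 and 1.46 in Nr G. TFIID subunit 2 (Solyc03g119780), of the general transcription machinery, read 5.65 in Nr O replicate 3 and 3.38, 1.77 and 4.87 in Nr G, on peaks of 2 bases.

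Carbon metabolism genes were called in 1 of 16 cases in Nr O (6.25%, against 18.7% of described genes) and 16 of 16 in Nr G (against 89.7%). Pyruvate, phosphate dikinase (Solyc01g080460), which makes phosphoenolpyruvate, read 3.73 and 6.47 in Nr G replicates 1 and 2. D-3-phosphoglycerate dehydrogenase (Solyc03g123830), the first step of serine synthesis from glycolysis, read 4.27 and 29.19 in Nr G replicates 1 and 3. The one gene called in Nr O was the pyruvate dehydrogenase acetyltransferase gene of all 6 libraries.

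Photosynthesis genes were called in 2 of 16 cases in Nr O (12.5%) and 15 of 16 in Nr G (93.8%), near the shares of described genes, with 14 of them in 1 Nr G library only, and none was lost by the rule. Rubisco accumulation factor 1.1 (Solyc11g006060), an assembly chaperone of Rubisco, was the gene called in both groups, at 49.97 in Nr O replicate 2 and 4.8 and 43.36 in Nr G replicates 1 and 2. Redox genes were called in 2 of 14 cases in Nr O (14.3%, against 18.7% of described genes) and 14 of 14 in Nr G (against 89.7%). Of these a peroxidase gene (Solyc02g090450) read 50 in Nr O replicates 2 and 3 and in Nr G replicates 1 and 2, which is 2 libraries of each group.

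Membrane genes gave small counts. Transporters and channels were called in 1 of 11 cases in Nr O (9.09%, against 18.7% of described genes) and 11 of 11 in Nr G (against 89.7%). The aquaporin gene PIP1-5 (Solyc08g081190), a water channel of the plasma membrane, read 50 and 49.89 in Nr G replicates 2 and 3, and a molybdate-anion transporter gene (Solyc03g082660) read 50 and 32.6 in Nr G replicates 1 and 3. Membrane traffic genes were called in 3 of 15 cases in Nr O (20%) and 13 of 15 in Nr G (86.7%), near the shares of described genes. The small GTPase gene RABA2a (Solyc01g103380) read 6.76 and 26.68, and MODIFIED TRANSPORT TO THE VACUOLE 1 (Solyc04g047770), a vacuolar sorting adaptor, 21.87 and 5.69, both in Nr G replicates 1 and 2. The coat protein gene copz2 (Solyc12g044910) was called once in each group, at 3.77 in Nr O replicate 3 and 6.32 in Nr G replicate 3.

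Cytoskeleton genes were called in 0 of 7 cases in Nr O (against 18.7% of described genes) and 7 of 7 in Nr G (against 89.7%), and actin-7 (Solyc03g078400) was lost, at 4.45 and 50 in Nr G replicates 1 and 3. Kinases, phosphatases and receptors were closer, at 6 of 13 in Nr O (46.2%, against 18.7% of described genes) and 10 of 13 in Nr G (76.9%, against 89.7%). A protein phosphatase 2C 55 gene (Solyc12g089090) read 6.5, 5.13 and 4.81 in Nr O and 3.38 and 5.03 in Nr G replicates 1 and 3. A serine/threonine-protein phosphatase gene (Solyc01g073650) read 2.74 and 2.8 in Nr O replicates 1 and 2 and 1.57 in Nr G replicate 2. Mitochondrial respiration genes were called in 2 of 5 cases in Nr O and 4 of 5 in Nr G, too few to set beside a share. Outside these lists 7 described genes were lost, among them NDR1/HIN1-like protein 1 (Solyc01g007220), named for a defence protein family, at 50 and 34.22 in Nr G replicates 2 and 3.

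**Figure D5:**
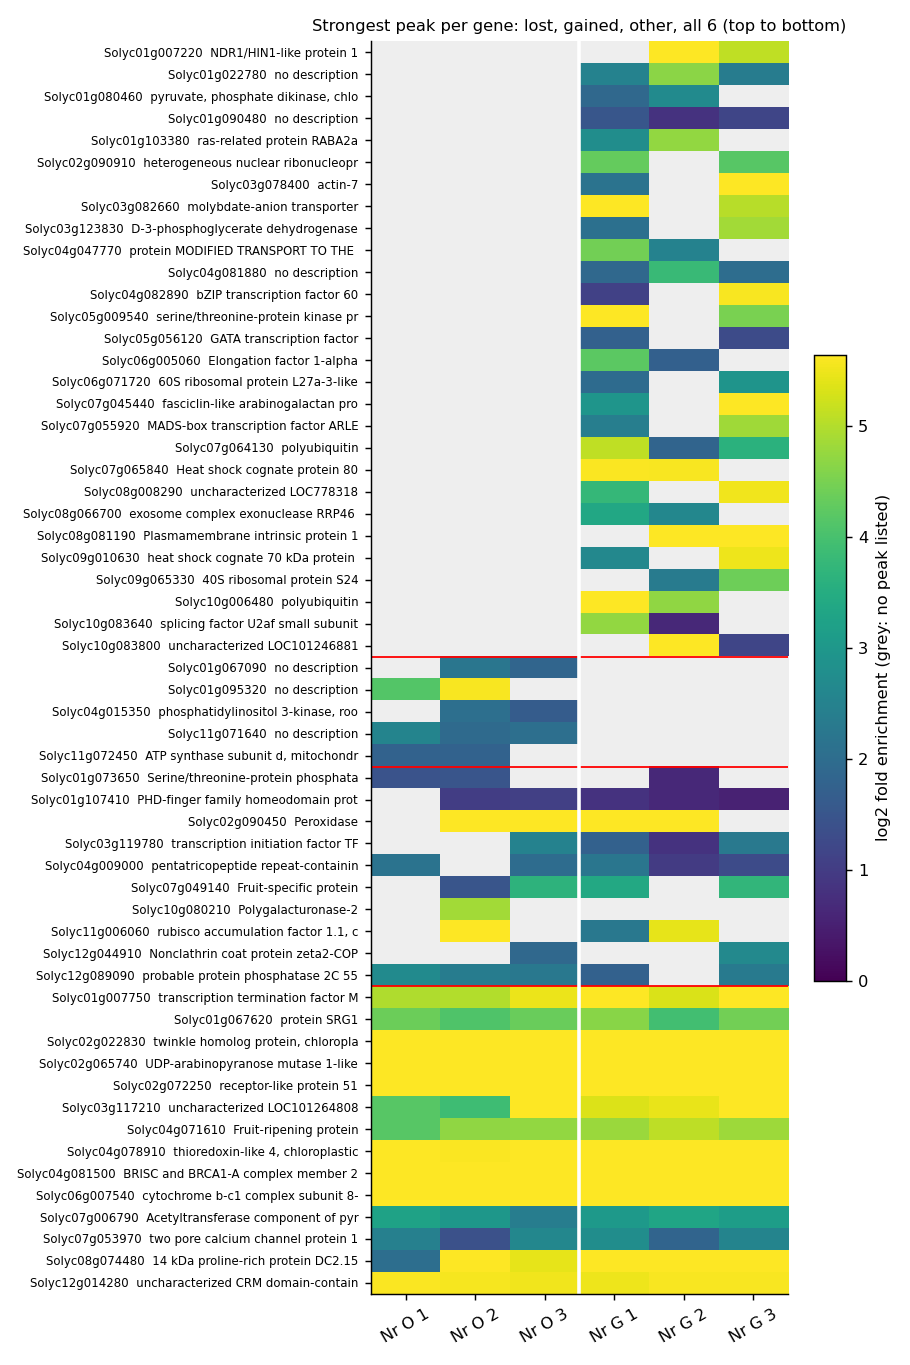
Strongest fold enrichment of each named gene in the 6 libraries on a log2 colour scale, Nr O in the 3 left columns and Nr G in the 3 right ones, grey where no peak is listed. Red lines part lost genes, gained genes, genes with other patterns and genes called in all 6, from top to bottom. Polyubiquitin is grey in Nr O and reads 34.5, 3.53 and 12.16 in Nr G.

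Among 12 ripening and fruit genes looked up by locus, 4 had an mRNA peak in a Nr library. The receptor gene NR itself and RIN, NOR, CNR, ACS2, ACO1, E8 and PSY1 had no mRNA peak in any Nr library. RIN, NOR and CNR are transcription factor loci at which ripening mutants are known, ACS2 and ACO1 make ethylene, E8 is an ethylene-induced gene and PSY1 makes phytoene for carotenoids. Polygalacturonase PG2A (Solyc10g080210), which cuts pectin in softening fruit, read 29.23 in Nr O replicate 2 and had no mRNA peak in Nr G. A circle listed with PG2 as its host (chromosome 10, 61691834 to 61722625, minus strand) had a circRNA peak in every Nr library. It read 50, 50 and 46.24 in Nr O and 50 in each Nr G library. Its peaks lay within 61722421 to 61722625, outside the PG2A mRNA peak at 61687132 to 61687378. They are therefore not counted as peaks of the PG2A mRNA. ASR1 (Solyc04g071610), a fruit and stress protein, read 18.12, 26.11 and 26.43 in Nr O and 27.65, 33.98 and 28.19 in Nr G. The groups did not overlap at ASR1, but these are peak caller values from lists of unequal size. How many of the 68 genes called in all 6 libraries did the same is not given here, so ASR1 is not read as unusual. The fruit gene 2A11 (Solyc07g049140) read 2.8 and 12.55 in Nr O replicates 2 and 3 and 10.67 and 13.14 in Nr G replicates 1 and 3.

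Of the 6 fruit markers looked for, 4 were called in any Nr library. Of these 4, 3 were called in Nr O and 3 in Nr G, beside 18.7% and 89.7% of described genes. ASR1 was called in all 6 libraries, and of seed storage genes 0 were called in either group. A peak shows a pulled-down fragment, not a level of RNA. Cell wall genes were called in 4 of 9 cases in Nr O (44.4%, against 18.7% of described genes) and 6 of 9 in Nr G (66.7%, against 89.7%). The lost one was a fasciclin-like arabinogalactan protein gene (Solyc07g045440), of a cell surface glycoprotein family, at 7.7 and 49.78 in Nr G replicates 1 and 3. Isoprenoid, carotenoid and volatile genes were called in 3 of 9 cases in Nr O (33.3%, against 18.7% of described genes) and 6 of 9 in Nr G (66.7%, against 89.7%). Each was called in a single library. Of 5 ripening regulators, 1 was called in Nr O (ASR1) and 5 in Nr G, beside 18.7% and 89.7% of described genes. Ethylene genes were called in 0 of 2 cases in Nr O and 2 of 2 in Nr G. The fruit marker, ripening regulator and ethylene lists are too short to read a difference from these shares.

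Summed over libraries, every chromosome had fewer mRNA peaks in Nr O. By library the groups met on chromosome 4, at 17 peaks, and overlapped on chromosome 12. That chromosome had 5, 12 and 9 peaks in Nr O and 31, 11 and 22 in Nr G. By the ratio of summed peaks the nearest groups were on chromosome 11, with 21, 26 and 21 peaks in Nr O and 43, 27 and 37 in Nr G. By the same ratio chromosome 8 had the widest gap, with 3, 8 and 5 peaks in Nr O and 22, 14 and 29 in Nr G. Summed over libraries, Nr O peaks came to 0.636 of the Nr G number on chromosome 11 and 0.246 on chromosome 8. The sums over the whole lists were 388 peaks in Nr O and 970 in Nr G. These chromosomes were picked as the extremes after the values were seen. Chromosome 11 held 13 of the 68 genes called in all 6 libraries, more than any other chromosome, and 1 of the 53 lost genes. Its share of all mRNA peaks was 19.4%, 17.2% and 16.3% in Nr O and 11.4%, 11.6% and 10.3% in Nr G.

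CircRNA peaks lay mostly in circles of both groups. Of 27 circles, 14 were called in Nr O and 26 in Nr G, 13 of them in Nr G only. The 10 circles called in all 6 libraries held 88 of 92 Nr O peaks (95.7%) and 85 of 106 Nr G peaks (80.2%). Outside them lay 1, 2 and 1 peaks in Nr O and 11, 4 and 6 in Nr G. The circle with most peaks spans chromosome 11, 18750703 to 18845571, plus strand, and had 13, 13 and 12 peaks in Nr O and 12, 13 and 12 in Nr G. The next, at chromosome 6, 11587647 to 11608356, plus strand, is listed with small subunit ribosomal RNA as its host, and had 5, 4 and 5 peaks in Nr O and 4 in each Nr G library. The third, at chromosome 4, 58638536 to 58672154, plus strand, had 2, 2 and 3 peaks in Nr O and 3, 2 and 2 in Nr G. Its strongest peak has the fold enrichments given for ASR1 in every library. In all, circles with a ribosomal RNA host held 34 peaks in Nr O and 32 in Nr G.

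By the rule of at least 2 of 3 against 0 of 3, 1 of 27 circles was lost (3.7%) and 0 were gained. The lost circle lies in polyubiquitin Solyc07g064130 (chromosome 7, 66537363 to 66538046, plus strand), and its peaks at 34.5 and 3.53 in Nr G replicates 1 and 2 are those of the mRNA lists. The count was 0 without Nr G replicate 1 or 2, 3 without Nr O replicate 2 and 2 without Nr O replicate 3. A second circle, chosen after its values were seen, lies antisense to Solyc07g064160 (chromosome 7, 66551392 to 66551601, minus strand) and read 3.73 in Nr O replicate 2 alone and 50, 50 and 47.16 in Nr G. Of the circles called in Nr G only, 12 were in a single library, and 1 circle was called in Nr O only.

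Of 8 lncRNAs 1 was lost (12.5%) and 0 were gained. Solyc01g056940 (chromosome 1, 57596509 to 57597074) had no Nr O peak and read 5.51 and 50 in Nr G replicates 1 and 2, so the count was 0 without either of them and 2 without Nr O replicate 3. Without Nr G replicate 3, 1 lncRNA was gained. Solyc06g011490 (chromosome 6, 7608690 to 7609087) was the lncRNA of all 6 libraries, at 12.31, 10.42 and 4.39 in Nr O and 3.56, 6.67 and 3.57 in Nr G. Solyc02g032360 read 15.27 in Nr O replicate 3 and 8.5, 15.11 and 4.87 in Nr G. Solyc06g007680 read 4.1 and 3.14 in Nr O replicates 1 and 3 and 4.38 in Nr G replicate 3. All 4 are listed as intergenic, and no function is given for them.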

How the data were processed

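RNA was fragmented, pulled down with an m1A antibody, treated with alkali and sequenced, per the labels' protocols. Trimming and alignment tools in the submitters' processing notes were cutadapt 1.9.3 and HISAT2 2.0.4. Peak names begin with MACS, but settings of that step and the control behind each list were not given in the sources used here. For each peak the authors deposited a fold enrichment, which is a ratio from their peak caller. They deposited a score as well, 10 times −log10 of the p-value per the file headers. A deposited percent FDR stood at 100 for every peak of the 36 lists and was left out. The deposited peak length in bases equals end minus start in every row.

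Positions are 1-based and follow SL3.00, an assembly named in a scaffold of the circRNA lists, and a gene's span is that of its listed peaks. The reference table is of another assembly, SLM_r2.1, and gave names only. Of 357 gene symbols, 349 were found in it. Position in exons, introns or UTRs and sequences were not used here. Input libraries were not analysed here.

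Peaks were counted once per library with pandas 2.3.3. Group differences were tested by two-sided exact permutation of libraries, and the Nr and AC stage differences by permuting genotype within stage. All 14 tests were adjusted together, and 0 were below 0.05, either adjusted or unadjusted. The calling and testing steps were tested on simulated data. The 19 gene lists came from loci and words in the deposited descriptions. Named genes were all called 3 of 3 against 0 of 3, all gained genes, the 20 described lost genes with the highest fold enrichments, described genes of all 6 libraries (up to 15 by the rule, of which 14 existed), list members called in at least 2 Nr libraries, 10 ripening genes, and the leading circles and lncRNAs. Members and lists were chosen with earlier results of these data known.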

Additional observations from a re-analysis of the deposited data

How the results depend on the processing

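Of 229 recomputed values 187 kept their direction, their side of the threshold and, for counts, stayed within 1.5 times. In the tests of Nr O against Nr G the side was fixed in advance. Their smallest exact permutation p is 0.1, and the smallest exact sign-flip p with a replicate block is 0.25. Lost and gained mRNA genes came to 16 and 2 with peaks at or above their list's median fold enrichment, 9 and 34 in lists cut to equal length, 4 and 1 by the rule of 3 of 3 against 0 of 3, 558 and 79 with 1 library enough, and 29 and 2 over described genes only, a set chosen after seeing the data. Equal lengths left 0 lost circles and turned mRNA peaks per gene to 0.046 higher in Nr O (exact permutation p = 0.1), with the sign of the full lists turned. Strong peaks alone gave 0 lost and 1 gained lncRNA. The circRNA peak difference was 0.0535 on the log2 scale without peaks shared with mRNA. The causes were not tested beyond the fewer peaks these settings keep.

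Leaving out each library gave 11 to 59 lost and 1 to 9 gained mRNA genes, 0 to 3 lost circles, and 0 to 2 lost and 0 to 1 gained lncRNAs. These counts kept the rule of at least 2 calls, which is stricter in a group with a library left out. The Nr O minus Nr G difference ranged from −1.52 to −1.18 (log2 mRNA peaks), −1.51 to −1.15 (genes), −0.266 to −0.105 (circRNA peaks), −2.83 to −1.83 (lncRNA peaks), −0.0729 to −0.0275 (mRNA length), −0.0466 to 0.146 (circRNA length) and −0.0214 to −0.00241 (peaks per gene). Nr minus AC ranged from −1.67 to −0.530, −1.59 to −0.498, −0.418 to −0.153, −5.17 to −1.67, −0.0817 to 0.0802, −0.170 to 0.146 and −0.0627 to −0.0237 in the same order.

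The deviations of same-numbered Nr O and Nr G libraries from their group means had correlations of 0.0223, 0.0838 and 0.0159. Those of unlike-numbered libraries ran from −0.0565 to 0.0336. Correlations this small, from 3 libraries in each group, cannot decide whether the numbers pair the libraries. With the replicate number as a block, mRNA peaks differed by −1.30 with an exact sign-flip p of 0.25, the smallest 3 pairs allow. The block changed no call. Read depth is unknown and limits which weak peaks could be listed.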
